A study of Homo sapiens with 18 samples.

Results

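The last scan of the second staining and washing series was compared with the last scan of the first series on each of the 3 human genome arrays A, B and C (HG-U133 Plus 2.0). The titles tie the scans to their array as A4 with A8, B4 with B8 and C1 with C2, which makes 3 pairs out of 6 of the 18 scans of the study, and all 54675 probe sets of the array were followed. Every array carried biotin-labelled RNA of 1 preparation from untreated FTC-133 cells, a human cell line from a follicular thyroid carcinoma, so that no biological condition differs between any of the scans. On scan A4 the array had passed 17 stringent washing cycles, all after staining, and on scan A8 it had passed 34. Array B had passed 19 cycles on scan B4 and 38 on scan B8, of which 2 preceded the staining of each series. Array C followed the standard protocol with 6 cycles before staining on scan C1 and was at 12 cycles on scan C2. Within each pair the new staining, the additional cycles and the repeated exposure to the scanner come together and cannot be told apart, and without a second RNA preparation every error given here is technical.

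On these arrays each transcript is read by a set of short probes that match it perfectly (PM) and by partners with a mismatch in the middle (MM). Labelled RNA fragments bound to a probe are made visible by streptavidin phycoerythrin (SAPE), a bulky fluorescent protein that binds biotin, and an antibody against SAPE carries further SAPE to the same place. Stringent washing in low salt removes weakly bound RNA before or after this staining, and a second staining adds dye to targets that have survived the first series. The values are MAS5 signals, 1 per probe set and scan, which are formed from the PM intensities after an estimate of stray signal from the MM intensities has been taken off. The authors had scaled each scan to the same trimmed mean, 250.02 to 250.06 in all scans, so that a general gain of brightness by the second staining is removed and what remains is how probe sets moved relative to each other. The study reports that some spots reached the upper limit of the scanner after re-staining. It gives this limit as a tentative explanation for the similar non-specific background in both series. Since its shift between the series spanned the whole range of intensities, it proposes an alternative. SAPE would make labelled targets easier to wash off, and unlabelled targets left on the probes would be stained in the second series. Intensities of single probes were not analysed here, and the part of either explanation in the results below was not tested. Changes are log2 of the second series over the first and are given for arrays A, B and C in this order, with means ± SD over the 3 arrays.

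The changes lay around 0 and were wide. The median change was 0.04, 0.01 and 0.08 on the 3 arrays, 52.5%, 50.8% and 54.6% of the probe sets had a higher signal on the second scan, and 47.2%, 46.2% and 47.3% lay within 0.5 of no change. Changes beyond 1 in either direction were found for 30.3%, 33.0% and 31.6%. The log2 signals of the 2 scans of a pair correlated with r = 0.873, 0.878 and 0.886 across probe sets, which share their array and its RNA. Between arrays r was 0.808 to 0.845 in the first series and 0.829 to 0.865 in the second. The third and last scans of a series on arrays A and B, between which no staining took place, correlated with r = 0.914 and 0.916 in the first series and with 0.959 and 0.958 in the second.

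No probe set passed limma's test with the array as a block, with 0 called higher (0%) and 0 called lower (0%) of 54675 at an adjusted p threshold of 0.05, and the smallest adjusted p was 0.786. At an unadjusted p under 0.05, 2183 were higher (3.99%) and 1283 lower (2.35%). When limma was allowed a trend of the variance with signal and robust moderation, 0 were called higher and 12 lower (0.0219%). The values of single genes below are therefore descriptions. These 12 were called only by that alternative, which was run on the deposited scaling alone.

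The spread of the signals did not move in the same direction on all arrays. The interquartile range of the log2 signals was 3.13 and then 3.07 on array A, 3.51 and 3.53 on array B, and 3.84 and 3.64 on array C, a mean difference of -0.08 ± 0.11 (SD, n = 3; exact two-sided sign-flip permutation test, p = 0.5). With 3 pairs that test cannot go below 0.25. The level that 1 in 1000 probe sets exceeded was lower on all arrays. It was 26340 on scan A4 and 19540 on scan A8, 40640 and 27980 on array B, and 21890 and 19760 on array C. The single highest signal was lower on arrays A and B, but on array C it was 27840 and then 28530.

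The change depended on brightness mainly at the very top of the scale. Probe sets were ranked by scans outside the pair, array A by scan B3, array B by scan A3 and array C by the mean of both. In the lowest decile the median change was 0.13, -0.01 and 0.30, and in the highest decile it was -0.02, -0.02 and -0.05. The difference between the highest and the lowest decile, -0.17 ± 0.17 (SD, n = 3), was as large as its SD. Within the highest decile the probe sets of ranks 1601 to 5467 were at -0.03, 0.00 and -0.04 and those of ranks 401 to 1600 at 0.03, -0.04 and -0.03. Ranks 101 to 400 were at -0.18, -0.32 and -0.12.

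The 100 brightest probe sets had medians of -0.54, -0.66 and -0.21, a mean of -0.47 ± 0.23 (SD, n = 3; exact two-sided sign-flip permutation test, p = 0.25, the smallest that 3 pairs allow), or 0.722 times the signal of the first series. Lower signals were found for all 100 on array A, for 99.0% on array B and for 83.0% on array C. Their median signals were 26460 on scan A4 and 18540 on scan A8, 40580 and 25790 on array B, and 21930 and 18390 on array C. Between the third and the last scan of the first series, with washing and no staining in between, the same probe sets were 0.32 higher on array A and 0.31 higher on array B, and in the second series 0.07 and 0.03 higher.

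The size of the shift at the top depended on the ranking, the scaling and the scans compared. With the first scan of each series on arrays A and B, and array C as before, the 100 brightest probe sets were at -0.03 ± 0.21 (SD, n = 3), within the spread of the arrays. Anchoring the scale on nearly the same probe sets holds their mean near 0 by construction. The 0.12 ± 0.02 found there is therefore no result on direction. Ranked by the third scans of the second series in place of the first, the 100 brightest probe sets were at -0.26, -0.41 and -0.15, with 93.0%, 96.0% and 77.0% of them lower, and 49 of the 100 by the mean of both arrays were the same. With all scans forced to 1 distribution by quantile normalization, the first-series ranking put them at -0.11 ± 0.05 (SD, n = 3).

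**Figure D1:**
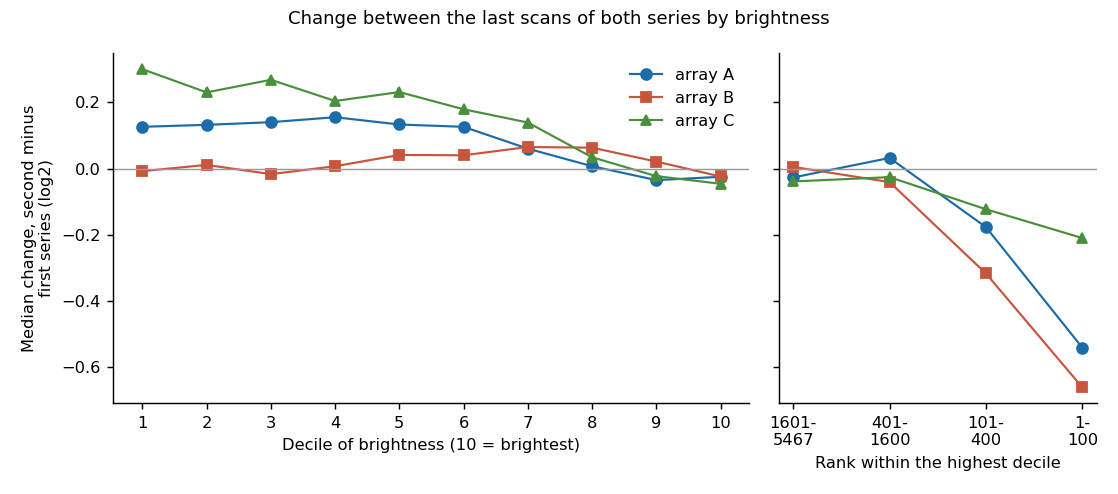
Median log2 change between the last scans of both series (second minus first) for deciles of brightness (left) and for rank classes within the highest decile (right), with 1 line per array. The medians stay between -0.05 and 0.30 over the deciles and reach -0.54, -0.66 and -0.21 in the 100 brightest probe sets.

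Under the deposited scaling most of the 100 brightest probe sets were lower on all 3 arrays. These counts go with the shift of the whole class, whose size depended on the scaling as given above. They are not a result on single probe sets. Over all probe sets 16.2% were higher and 12.3% lower on all 3 arrays. Among the 100 brightest by the mean of scans A3 and B3, 0 were higher and 83 lower on all arrays, and among ranks 101 to 1000, 85 of 900 were higher and 286 lower. Of the 100 brightest by the mean of scans A7 and B7 of the second series, 1 was higher and 73 lower on all arrays, and 49 were shared with the first ranking. In the lowest decile 1165 of 5467 were higher and 392 lower on all arrays. Larger steps, by over 1 on every array, were found for 690 higher probe sets (1.26%) and 424 lower ones (0.775%). None of these 690 was in the highest decile, and 162 of them were in the lowest. These deciles come from first-series scans of arrays A and B. A probe set bright only in the second series counts as dim in them, which favours lower values at the top.

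Across all probe sets the changes of 2 arrays were almost unrelated, with r = 0.02 between A and B, 0.05 between A and C and 0.05 between B and C over 54675 probe sets that share probe sequences and RNA. In the highest decile r was 0.28, 0.24 and 0.40, and over the 100 brightest 0.84, 0.80 and 0.89. When the pair of probe sets that lost over 1 on every array was left out of the 100, r was 0.41, 0.15 and 0.47 over 98. This pair was COX1, with a mean change of -1.08, and 221798_x_at, with the far larger one of -6.88. Each was not left out singly. Spearman's rho over the 100 was 0.57, 0.17 and 0.25.

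The changes of dim probe sets were wide. Their SD over the lowest decile was 1.48, 1.71 and 1.69, and over the highest decile 0.29, 0.33 and 0.33. Between the third and last scans of the first series the SD was 1.25 and 1.40 on arrays A and B in the lowest decile and 0.19 and 0.18 in the highest, and in the second series 0.86 and 1.02 in the lowest and 0.14 and 0.13 in the highest. On both arrays the changes across the new staining had the larger SD in all 10 deciles, with more cycles in between as well. The 100 brightest probe sets lay close together on the first scans, with an SD of the log2 signals of 0.16, 0.13 and 0.17, and further apart on the second, with 0.58, 0.81 and 0.78. These SDs include 221798_x_at, which was at 667, 174 and 122 on the second scans, and the interquartile range went from 0.24, 0.17 and 0.19 to 0.44, 0.39 and 0.40. The 100 had been chosen as the brightest on first-series scans, and ranks 101 to 1000 were narrower on the second scans of arrays A and B, with an SD of 0.67 and then 0.60 and of 0.73 and then 0.63, while array C had 0.64 on both.

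**Figure D2:**
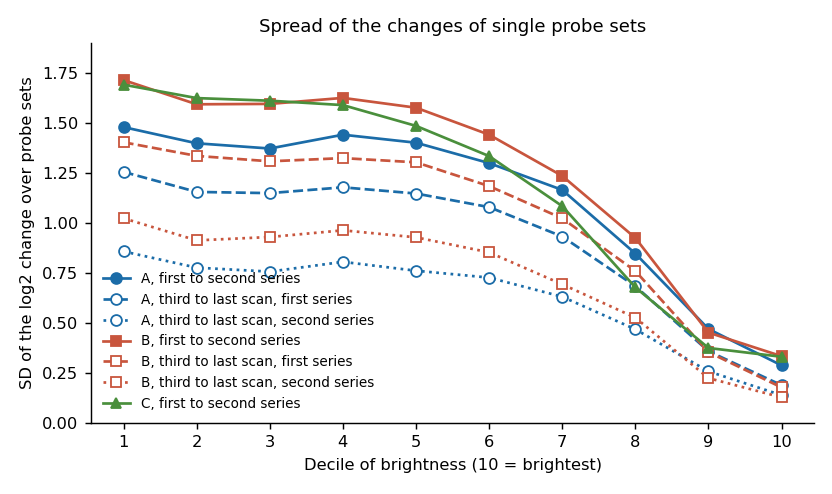
SD of the log2 changes of single probe sets by decile of brightness, between the last scans of both series (filled) and between the third and last scans within 1 series on arrays A and B (open). The filled points of an array lie above its open points in all deciles, from 1.48 to 1.71 at the dim end to 0.29 to 0.33 at the bright end.

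Among the 1000 brightest probe sets 5 were lower by over 1 on all 3 arrays, and they were singled out after their values had been seen. The first is COX1, the mitochondrial gene of a core subunit of cytochrome c oxidase, at brightness rank 2. Its signal was 32464 on scan A4 and 14953 on A8, 50796 on B4 and 25261 on B8, and 27839 on C1 and 12792 on C2. All 3 signals of the second series lay below all 3 of the first, with changes of -1.12, -1.01 and -1.12, and the mean of -1.08 ± 0.06 (SD, n = 3) was called by limma with a variance trend and robust moderation (adjusted p = 0.00252; 0.786 without).

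The largest step of these 5 belonged to 221798_x_at, a probe set without a gene symbol in the annotation used and with a first-series level like that of the brightest genes. It had 25210 on scan A4 and 667 on A8, 39488 on B4 and 174 on B8, and 23154 on C1 and 122 on C2. Its change was -5.24, -7.83 and -7.57, and it was not called (adjusted p = 0.786 with limma and 0.102 with the variance trend).

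The probe set 205967_at, shared by genes of histone H4, a core component of the nucleosome, had 15304 and 4510 on array A, 34851 and 2041 on array B, and 14735 and 944 on array C. Its changes were -1.76, -4.09 and -3.96. The other probe sets assigned to single histone H4 genes were dim, from 2.06 to 282 on the first-series scans, and had changes in both directions.

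HUWE1, the gene of a large ubiquitin ligase, was read by 5 probe sets, and those given here disagreed. Its probe set 207783_x_at had 3784 and 1246 on array A, 29048 and 804 on array B, and 15591 and 1156 on array C, with changes of -1.60, -5.18 and -3.75. The probe set 208598_s_at of the same gene, with first-series signals of 1439, 1264 and 1305, stood at -0.13, 0.41 and 0.11. Only the former carries the suffix that the manufacturer gives to sets with probes that also match other transcripts.

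The fifth, 211487_x_at, has no gene symbol. It had 22970 and 8255 on array A, 33388 and 16583 on array B, and 17674 and 7700 on array C. Its change of -1.23 ± 0.24 (SD, n = 3) was called with the variance trend (limma, adjusted p = 0.00306).

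S100A6, a small calcium-binding protein of growing cells, missed the rule on array A. Its bright probe set 217728_at had 31412 and 20565 on array A, 43394 and 4188 on array B, and 22561 and 7597 on array C. The changes of -0.61, -3.37 and -1.57 differed more between the arrays than those of COX1, with an SD of 1.40 against 0.06.

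**Figure D3:**
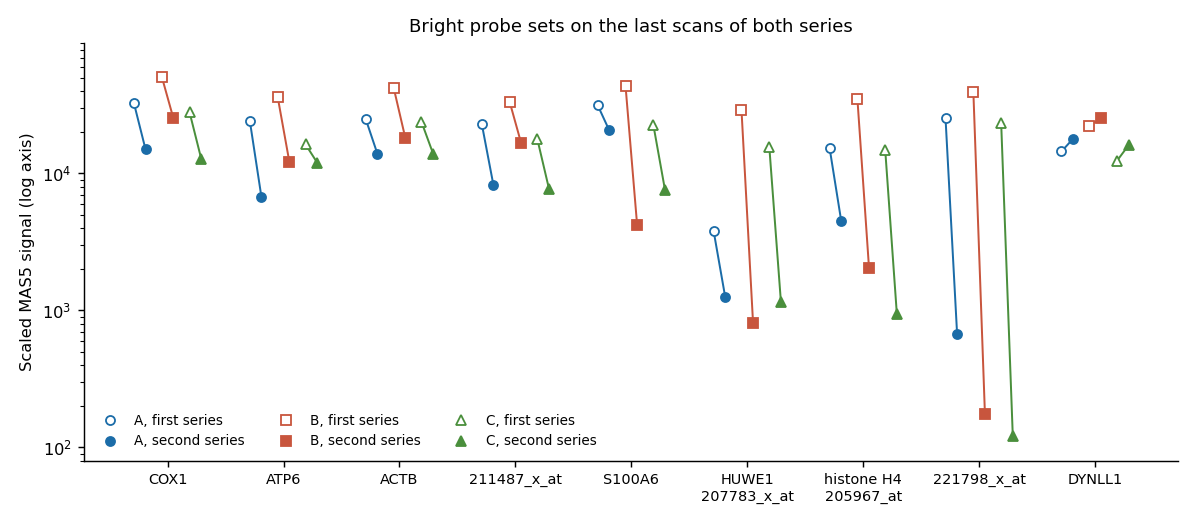
Scaled MAS5 signals (log axis) of 9 bright probe sets on the last scan of the first series (open) and of the second series (filled), joined within each array. COX1 lies lower by a similar step on all arrays (-1.12, -1.01 and -1.12), 221798_x_at drops to 667, 174 and 122, and DYNLL1 is higher on all arrays.

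The earlier scans of arrays A and B show these probe sets along both series. In the first series COX1 had 12888, 19069, 25852 and 32464 on scans A1 to A4, and on scans A5 to A8, after re-staining, it had 5101, 9944, 12142 and 14953. S100A6 had 1422, 7396, 17882 and 20565 on scans A5 to A8, and 961, 1889, 11819 and 4188 on scans B5 to B8. The signal of 221798_x_at was 160, 346, 1799 and 667 on scans A5 to A8 and 19.3, 241, 3429 and 174 on scans B5 to B8. The histone H4 probe set 205967_at had 16710 on scan B7 and 2041 on scan B8, and HUWE1 207783_x_at had 6065 on scan A7 and 1246 on scan A8. For 221798_x_at, 205967_at and HUWE1 the last scan of the second series lay below the third one on both arrays, so that the size of their change depends on which scan of the second series is taken. Compared after 7 additional cycles instead (A3 with A7, B3 with B7, C1 with C2) the mean changes were -1.05 for COX1, -4.76 for 221798_x_at, -1.79 for 205967_at, -1.55 for HUWE1 207783_x_at and -1.19 for S100A6. With the first scans of each series on arrays A and B they were -0.87 for COX1, -7.74 for 221798_x_at, -3.72 for 205967_at, -4.28 for HUWE1 207783_x_at and -2.95 for S100A6.

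**Figure D4:**
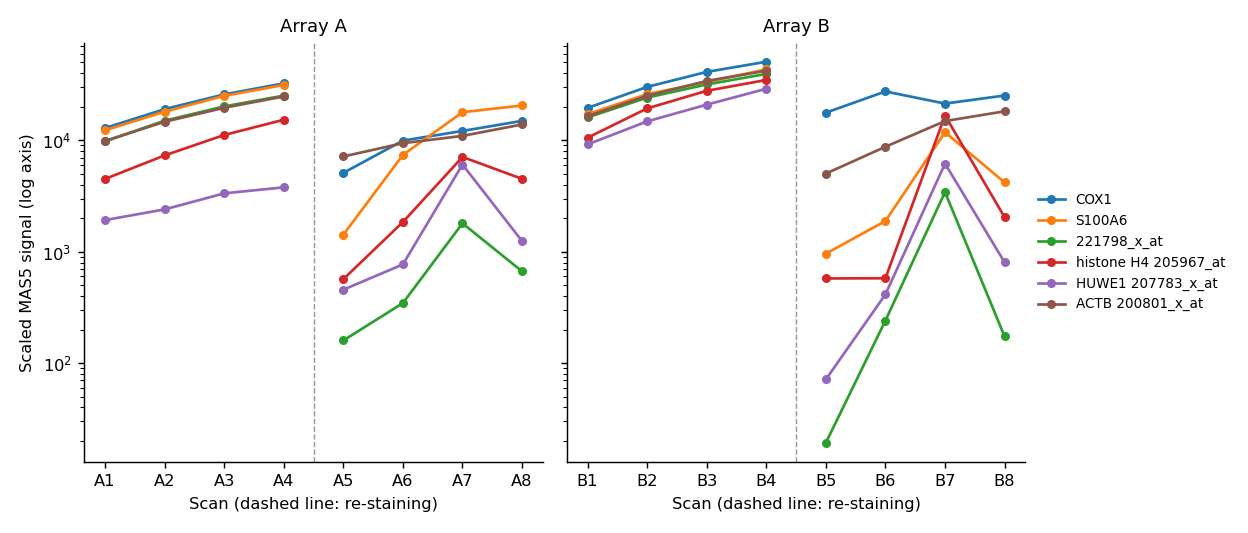
Scaled MAS5 signals (log axis) of 6 bright probe sets on all scans of arrays A (left) and B (right), 4 scans before and 4 after re-staining. All 6 increase from the first to the fourth scan of the first series, and all 6 start the second series at a lower level (COX1 at 5101 on scan A5 after 32464 on scan A4).

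The 12 probe sets called with the variance trend were all lower, all among the 266 brightest, and 10 of them carry the suffix for shared probes. All 12 were also called when any 1 array was left out, but these fits reuse the pairs that had picked the 12 and are no separate support. The total of calls was not stable and was larger with fewer arrays. It came to 27 higher and 42 lower without array A, 31 and 55 without array B, and 0 and 87 without array C.

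Of these 12, 4 read the actins, the proteins of the thin filaments of the cytoskeleton. ACTB 200801_x_at had 24780 and 13880 on array A, 42181 and 18224 on array B, and 23758 and 13937 on array C, a change of -0.94 ± 0.24 (SD, n = 3; limma with variance trend, adjusted p = 0.0137). ACTB 213867_x_at changed by -1.08 ± 0.22 (adjusted p = 0.00608, limma with variance trend). The 2 sets shared by ACTB and ACTG1, 211970_x_at and 213214_x_at, changed by -0.80 and -0.84.

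A further 3 belong to ribosomal protein genes whose introns carry small nucleolar RNAs. They are 201257_x_at for RPS3A (-0.65, -0.66 and -0.83), 214003_x_at for RPS20 (-0.58, -1.02 and -1.12) and 224930_x_at for RPL7A (-0.92, -1.22 and -0.76). The set 213356_x_at, shared by HNRNPA1, an RNA-binding protein of splicing, and its relatives, changed by -0.78 ± 0.04 (SD, n = 3). The rest are COX1, the 5′ control set of GAPDH, and 211487_x_at and 222229_x_at, which have no symbol. The size of all 12 depended on the scaling. Quantile normalization left COX1 at -0.75, ACTB 200801_x_at at -0.67, 213356_x_at at -0.49 and 201257_x_at at -0.34, and anchoring on the 100 brightest probe sets left them at -0.50, -0.35, -0.20 and -0.13. All 12 stayed below 0 under both, but they had been picked for their falls in these same scans, so that this is no separate support. Under either scaling limma without the variance trend called 0 probe sets, and its adjusted p for 201257_x_at was 0.868 and 0.83 in this order.

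Sets with shared probes were frequent at the top and their median change was more negative there. They made up 50 of the 100 brightest probe sets, with medians of -0.65, -0.75 and -0.25 against -0.47, -0.56 and -0.19 for the other 50. Their median rank was 48 against 57. Over all ranks the 4207 sets with shared probes were at 0.03, 0.01 and 0.07 and the other 50468 at 0.04, 0.01 and 0.08.

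Gene lists were described by the probe set of each gene that was brightest on scans A3 and B3. Among all 19775 genes the median change was 0.00, -0.01 and 0.05, with 15.4% higher and 14.1% lower on all arrays. The cytosolic ribosomal proteins, the structural parts of the translation machinery, had medians of -0.36, -0.52 and -0.23, and 36 of 51 measured members (70.6%) were lower on all arrays while 1 was higher. Averaged over every probe set assigned to each gene, the medians were -0.28, -0.42 and -0.22, with 28 lower and 5 higher. Averaged in the same way, 2445 of all 19775 genes were lower and 3173 higher. Of these 51 genes, 49 were among the 1000 brightest probe sets. At an unadjusted p under 0.05 limma had 1 of the 51 lower and 0 higher, beside 3.09% higher and 1.98% lower among all genes. Relative to all genes the list stood at -0.38, at -0.03 after quantile normalization and, in the other direction, at 0.13 when arrays A and B entered with the first scan of each series. When the 100 brightest probe sets served as the anchor of the scale, the median of all probe sets moved from 0.04 to 0.63 and the list itself from below 0 to 0.22, with the same -0.38 relative to all genes. The counts of the 51 genes on all arrays depended on the scaling too. With that anchor 0 were lower and 27 higher, and after quantile normalization 10 were lower and 5 higher.

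RPL27, of brightness rank 3, had 34355 and 20753 on array A, 48197 and 28182 on array B, and 22982 and 16767 on array C. RPL34 had the largest mean difference of the list, with 13984 and 10171 on array A, 30310 and 13950 on array B, and 17654 and 6423 on array C. RPL31 stood at -0.01, -0.15 and 0.09, which is within the spread of the arrays. The member that was higher on all arrays, RPL27A, was dim here, with 450, 495 and 536 on the first-series scans.

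Among genes encoded by mitochondrial DNA 7 of 13 had a probe set of their own, with medians of -0.47, -0.50 and -0.19. Of these 7, 6 were among the 1000 brightest probe sets. Besides COX1, ATP6, a subunit of the ATP synthase, had changes of -1.84, -1.56 and -0.44. COX2 had -0.47, -0.50 and -0.20, and ND4, a subunit of complex I, -0.88, -0.54 and -0.19. ND2, also of complex I and of brightness rank 273, stood at 0.05, -0.08 and -0.06. ND6 was higher on all arrays, by 0.23, 0.16 and 0.46, at first-series signals of 614 to 669. COX3 went from 16948 to 15903 on array A, but from 3139 to 6333 on array B and from 1520 to 3332 on array C. The list stood at -0.40 relative to all genes, at 0.00 after quantile normalization and at 0.03 with the first scans, and anchored on the brightest it was itself above 0, at 0.20.

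Glycolysis, the pathway that breaks glucose down to pyruvate and lactate, had medians of -0.27, -0.29 and -0.39, with 9 of 17 members lower on all arrays and 0 higher. Among all genes 14.1% were lower and 15.4% higher, and among the probe sets of ranks 101 to 1000, 31.8% were lower. Of the 17 genes of the list, 9 were among the 1000 brightest probe sets. Averaged over every probe set assigned to each gene, the medians were -0.15, -0.20 and -0.10, with 6 lower and 1 higher. LDHA, the subunit of lactate dehydrogenase, had 26081 and 14028 on array A, 40455 and 18494 on array B, and 22787 and 16095 on array C (adjusted p = 0.0506, limma with variance trend). ENO1 had -0.36, -0.52 and -0.39, LDHB -0.51, -0.33 and -0.73, and ALDOA -0.19, -0.27 and -0.24. PGK1 and PGAM1 were lower on arrays A and B and higher, by 0.13 and 0.14, on array C. Relative to all genes the list was at -0.33, at -0.17 after quantile normalization and, in the other direction, at 0.16 with the first scans, and anchored on the brightest it was itself at 0.27.

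The translation factors were at -0.01, -0.12 and -0.18, and at 0.25 relative to all genes with the first scans. Of 30, 10 were lower and 4 higher on all arrays, beside 14.1% lower and 15.4% higher among all genes, and 15 were among the 1000 brightest probe sets. After quantile normalization the list was at 0.005 with 4 lower and 6 higher, and anchored on the brightest at 0.48 with 0 lower and 20 higher. EEF1A1, which brings aminoacyl-tRNA to the ribosome and is of brightness rank 10, had -0.70, -0.76 and -0.24. The chaperones were at -0.08, -0.15 and -0.15, and at 0.32 relative to all genes with the first scans, with 9 of 26 lower and 1 higher. Of these 26, 19 were among the 1000 brightest probe sets. After quantile normalization the chaperones were at -0.05 with 5 lower and 2 higher, and anchored on the brightest at 0.46 with 0 lower and 18 higher. Their brightest member PPIA, a prolyl isomerase, had nearly the same step on every array, -0.43, -0.40 and -0.38. HSP90AA1 had -1.04, -1.09 and -0.08.

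The remaining lists of general cell functions had medians between -0.12 and 0.03 on the 3 arrays, but with the first scans they stood above all genes, the proteasome at 0.37, oxidative phosphorylation at 0.32 and replication and mitosis at 0.24, and anchored on the brightest their own medians were 0.52, 0.55 and 0.59. The proteasome subunits were at 0.00, -0.12 and -0.09, with 7 of 27 lower and 1 higher on all arrays, beside 14.1% lower and 15.4% higher among all genes. PSMC2, an ATPase of the proteasome's cap, had -0.28, -0.74 and -0.98. The nuclear genes of oxidative phosphorylation were at 0.02, -0.09 and -0.04, with 15 of 59 lower and 12 higher. Among the higher ones were ATP5MC3 with 0.19, 0.17 and 0.38 and SDHD with a mean of 0.39, and among the lower ones COX7A2 with -0.27, -0.54 and -0.60. Replication and mitosis genes were at 0.03, 0.01 and -0.02 and had 7 of 39 members in each direction. MAD2L1 of the spindle checkpoint was higher by 0.24, 0.30 and 0.16, whereas TYMS, the thymidylate synthase and brightest member, had -0.16, -0.26 and -0.74.

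A bright probe set with a higher signal on every array was that of DYNLL1, a light chain of dynein, named after its values were seen. It had 14453 and 17904 on array A, 22340 and 25176 on array B, and 12389 and 16106 on array C. The mean of 0.29 ± 0.10 (SD, n = 3) was not called (adjusted p = 0.872 with limma and 0.731 with the variance trend).

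**Figure D5:**
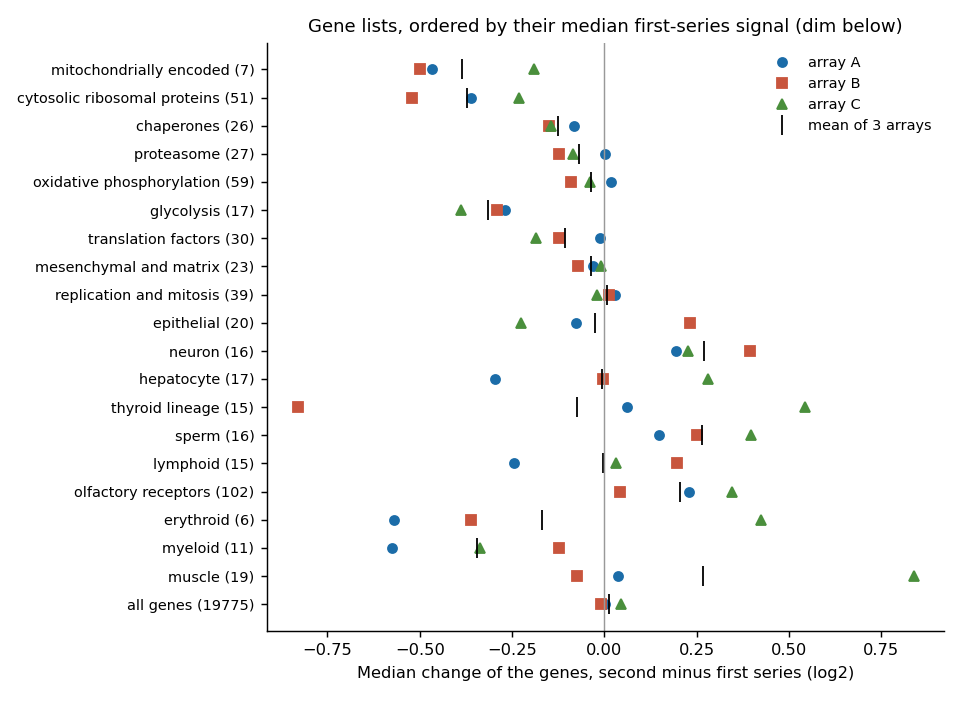
Median log2 change of the genes of each list (second minus first series) on arrays A, B and C, with the mean of the 3 arrays as a vertical bar and the number of measured genes in brackets. Ribosomal proteins lie at -0.36, -0.52 and -0.23 (0.22 on average when anchored on the 100 brightest probe sets), and the dim lists scatter between arrays.

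The markers of the thyroid were mostly dim in this thyroid line. PAX8, a transcription factor of the thyroid lineage, had 1238 and 1291 on array A, 924 and 869 on array B, and 757 and 750 on array C. NKX2-1, its partner in thyroid cells, had 620 and 663 on array A, 926 and 847 on array B, and 766 and 839 on array C. Their changes, -0.01 ± 0.08 and 0.03 ± 0.14 (SD, n = 3), were smaller than their spread and changed sign with the scaling. TG, the thyroglobulin gene, was dim, with 44.9 and 148 on array A, 78.2 and 12.1 on array B, and 40.7 and 61.7 on array C. The receptor gene TSHR was at 5.45, 41.2 and 38.9 on the first-series scans. Over all 15 measured members 1 was higher and 1 lower on all arrays, and the medians of 0.06, -0.83 and 0.54 did not have the same sign.

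The lists for cells that are not in the culture were dim as well, with median signals of 7.57 to 116 on the first-series scans, and their medians of change scattered by up to 0.52 (SD, n = 3). Olfactory receptors, genes of the nasal epithelium, had 0.23, 0.04 and 0.34, with 16 of 102 higher (15.7%) and 5 lower (4.90%) on all arrays. Neuron genes had 0.19, 0.39 and 0.23 with 4 of 16 higher and 1 lower, but -0.47, -0.82 and 0.23 when compared after 7 additional cycles and -0.77, 0.02 and 0.23 with the first scans. Sperm genes had 0.15, 0.25 and 0.40 with 4 of 16 higher and 1 lower. The muscle list was at 0.04, -0.08 and 0.84 and the myeloid list at -0.58, -0.12 and -0.34. Erythroid, lymphoid and hepatocyte genes had medians of both signs. The ratio of ribosomal proteins to olfactory receptors, taken from the medians of both lists, was lower in the second series on all arrays, by 0.48, 0.47 and 0.71 on the log2 scale, a mean difference of -0.55 ± 0.13 (SD, n = 3; exact two-sided sign-flip permutation test, p = 0.25). It depended on the processing as well. After quantile normalization the mean medians were -0.04 for the ribosomal proteins and 0.12 for the olfactory receptors, and with the first scans the ribosomal proteins were the higher ones on arrays A and B, at 0.43 and 0.11 against -0.29 and -0.07, with array C as before.

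Control probe sets cover both ends of the scale. The bacterial transcripts bioB, bioC and bioD, added to the hybridization mix already labelled, had medians of 0.20, -0.04 and 0.11 over 14 probe sets, at median signals of 971 to 1496 on the first-series scans. The phage gene cre, the brightest of these additions, was lower on arrays A and B, at -0.24 and -0.41, and higher on array C, at 0.29, over 4 probe sets. The 3 control sets of GAPDH, a glycolytic enzyme, were lower on all arrays, with medians of -0.695, -1.004 and -0.086. The set for its 5′ end had 29337 and 16299 on array A, 42936 and 20764 on array B, and 22245 and 15288 on array C (-0.81 ± 0.26, SD, n = 3; limma with variance trend, adjusted p = 0.0325). The set for its 3′ end had -0.70, -0.68 and -0.07. Of the 3 control sets of ACTB 2 were lower on all arrays, and that for the 5′ end was at 0.03, -0.42 and -0.45. The 3 sets of M10098 had medians of 0.12, 0.09 and 0.16. The Bacillus genes dap, lys, phe, thr and trp, at median signals of 9.51 to 19.7 in the first series, ranged from -3.51 to 4.76 over 27 probe sets, with 9 higher and 3 lower on all arrays. Anchored on the 100 brightest probe sets the medians of cre and ACTB turned to 0.47 and 0.22, and that of GAPDH to -0.01.

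Since no probe set passed the test, genes were also named by the largest step shared by all 3 arrays among probe sets above the median signal, with 1 symbol. These are extremes of the whole table and were not called. Among the 10 highest were MIR1915HG, the host gene of a microRNA, with 29.1 and 215 on array A, 21.1 and 141 on array B, and 32.7 and 211 on array C, and ZNF710, a zinc finger protein, with 48.1 and 253, 17.1 and 107, and 17.9 and 111. CORT, the gene of the neuropeptide cortistatin, changed by 2.86, 2.32 and 2.60, CHRM4, a muscarinic receptor, by 2.12, 2.05 and 2.51, and ADAMTS13, a protease that cuts von Willebrand factor, by 2.05, 2.19 and 1.97. The others were ANGPTL4, ACTN3, ZBTB7C, ATP11B and TLK1, with means of 1.70 to 2.55.

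Among the 10 lowest was HIBADH, an enzyme of valine breakdown, with 191 and 44.5 on array A, 77.9 and 17.8 on array B, and 72.4 and 16.7 on array C. RAD54L2 had -2.33, -1.90 and -2.17, LRCH4 -2.54, -1.88 and -2.56, and C2, a component of complement, -1.81, -1.72 and -2.09. ZNF527, GNAQ, IRF5, EFR3B and HSD11B1L had means of -2.20 to -1.71. HUWE1, described above, was the only bright one of all 20, and no other exceeded the 293 of CORT on scan A8. Every adjusted p was 0.786 (limma).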

How the data were processed

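The deposited values are MAS5 signals, computed and scaled per scan by the authors (MAS5 version not given in the sources used here), 1 signal for each of 54675 probe sets, linear and positive throughout. Detection calls were not used here, and 3 arrays of 1 RNA limit the precision, so that p-values measure technical spread. Scans were grouped by title, and the pairing comes from the titles, since both scans of a pair are of 1 physical array. The log2 signals, without offset or filter, were fitted with limma (version 3.58.1, R version 4.3.3, files read by data.table, version 1.17.8) with the array as a block and Benjamini-Hochberg adjustment over all probe sets. An alternative had a variance trend and robust moderation. The fits were first run on simulated data with independent normal noise, whose SD depended on the signal alone. Those data held no shared shift of bright probe sets, so that they are no support for the calls given here. Medians, ranks, exact sign-flip tests and plots used Python 3.11.15, numpy 2.4.6, pandas 2.3.3, scipy 1.17.1 and matplotlib 3.10.9.

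Of the probe sets, 41097 have 1 gene symbol in the array's annotation, 1801 several and 11777 none, and 62 are controls. RefSeq held 41043 of the gene identifiers and led to 0 changed symbols. For the 19775 genes the brightest probe set (mean log2 of scans A3 and B3) stood for the gene. Named genes are the 10 highest and 10 lowest called ones or, since fewer were called, those with the largest smallest step over the 3 arrays, among probe sets with 1 symbol and a mean above the median, and beside these the controls, COX1, RHOB and members of 18 fixed lists and of the olfactory receptors. The comparison, the lists and the rules were chosen with earlier results of these data known. Alternatives were centring, quantile normalization, anchoring on the 100 brightest probe sets, an offset of 16, the brighter probe sets alone, no array block, leaving out each array, other scans and other rankings. No column of another sample was present (0 columns left unused).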

Additional observations from a re-analysis of the deposited data

How the results depend on the processing

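The test has 3 pairs and called 0 probe sets higher and 0 lower under centring, quantile normalization, anchoring, an offset of 16, the brighter probe sets alone, the other scans and without each array. Without the array block (no pairing) it also called 0 and 0, with unadjusted p-values under 0.05 for 995 higher and 675 lower ones; the block was kept since both scans of a pair are of the same array. The variance trend with robust moderation called 12 lower, and without array A, B or C in turn, an alternative chosen after seeing the data, 27, 31 and 0 higher and 42, 55 and 87 lower. The difference between the highest and lowest decile, -0.171, was 0.05 after quantile normalization, -0.239 over the brighter probe sets alone, 0.251 with the first scans, 0.003 with array means over all matched scans and -1.27 when ranked by the first scan of the pair itself, which also enters the change, and -0.249 to -0.084 without 1 array. The 100 brightest probe sets, at -0.471, were at -0.105 after quantile normalization, 0.116 when anchored on nearly the same probe sets, -0.03 with the first scans, -0.275 when ranked by the second series, and -0.601 to -0.375 without 1 array. This result and the ranking by the second series were added after seeing the data. Anchoring holds the mean of nearly the same probe sets near 0 by construction. The spread was not computed under quantile normalization, which makes it equal, and its difference was -0.131 to -0.021 without 1 array. The mean r between arrays, 0.04, was 0.069 over the brighter probe sets and 0.066 with array means, and 0.022 to 0.05 without 1 array. In the highest decile it was 0.308 and 0.244 to 0.398 without 1 array. Where the construction of an alternative does not show it, the cause was not tested. Of 39 probe sets followed, 9 of 507 values were reversed, and these were those of PAX8 (-0.01, with 0.01 after quantile normalization, 0.57 anchored, 0.02 without array B, 0.02 after 7 additional cycles, 0.14 with the first scans and 0.05 with array means) and of NKX2-1 (0.03, with -0.04 centred, -0.02 without array C, in a range of -0.02 to 0.11 without 1 array, and -0.05 after 7 additional cycles). Signal over background was not used here, so that a dim signal is not shown to be that of its transcript.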

Other observations

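Matrix and adhesion genes, which this line expresses at a high level, lay near 0, with medians of -0.03, -0.07 and -0.01 over 23 genes. FN1, the fibronectin gene, had -0.64, -0.57 and -0.17, and VIM, the intermediate filament of mesenchymal cells, -0.42, -0.77 and -0.14. At lower brightness ITGB1, an integrin subunit, had 0.17, 0.06 and 0.57, and THBS1, a secreted glycoprotein, 0.20, 0.45 and 0.21. None of these 4 was called. Their brightness ranks were 49, 184, 485 and 1464 in this order. The 2 brighter ones had the lower values on each array, and 2 genes on either side were picked after their values were seen.

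IL7R, a cytokine receptor listed for lymphocytes, was the only gene within the 1000 brightest probe sets (rank 556) among the lists of cells that are not in the culture. It had 8265 and 8747 on array A, 15537 and 12638 on array B, and 9142 and 13671 on array C. Its change was 0.08, -0.30 and 0.58, so that the arrays disagreed in direction. RHOB, a small GTPase of the list of named genes, had 195 and 128 on array A, 194 and 266 on array B, and 242 and 255 on array C with its brightest probe set.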
